A study of Mus musculus with 2 samples.

Results

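Fibroblast growth factors (FGFs) are ligands that bind receptor tyrosine kinases with heparan sulfate as a co-factor, and the activated receptor passes its signal through the docking protein Frs2 to the MAPK cascade. Among the genes this cascade induces are ETS transcription factors of the Pea3 group and feedback inhibitors of the Sprouty, Spred and Dusp families. In the rodent incisor, which grows throughout life, FGFs from the dental mesenchyme and epithelium sustain the epithelial progenitors that give rise to ameloblasts, the enamel-forming cells.

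The 39 genes described here were picked by a rule on symbols, set with earlier results of these data known: every gene on the array named *Fgf* with a number, the receptors *Fgfr1* to *Fgfr4* and *Fgfrl1*, the adaptor *Frs2*, the co-receptor *Klb*, *Spry1* to *Spry4*, *Spred1*, *Spred2*, *Dusp6*, *Etv1*, *Etv4* and *Etv5*. They are 39 of 21243 genes that carried a probe and a reference symbol, and 57 probes on 93 spots measure them. Incisor tooth germ of newborn wild-type mice (C57BL/6J per the study's methods) was compared with that of *Sox21* knockout (*Sox21* KO) mice, Sox21 being a transcription factor of the SOX family. Total RNA of each was labelled with Cy3 and hybridized to an Agilent mouse expression array of 60-base probes, 1 array per genotype and 2 in all. The labels place both samples at postnatal day 0, whereas the study's methods give day 1. How many animals each sample pooled is not given in the sources used here.

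With 1 array per genotype no comparison had a replicate check, so each gene is described by its processed signal on both arrays and by the log2 ratio, *Sox21* KO minus wild-type, of the signal over the array's 75th percentile. The error given after ± is the scanner software's own error for the spot, carried to the log2 ratio. It had a median of 0.20 over the members measured on both arrays and covers the measurement of a spot, not the spread between animals. A gene is called measured where its brightest probe was marked well above background. The lowest signal so marked was 21.3 in wild-type and 19.5 in KO.

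The targeted gene and the markers of the cells in the tissue set the frame for what follows. The brightest *Sox21* probe read 1362 in wild-type and 659 in KO, a log2 ratio of -1.09, and its other probe read 286 and 103, a ratio of -1.51. Signal was thus lower but still present, and where the probes lie relative to the deletion is not given in the sources used here. Ameloblast markers were measured for 7 of 7 genes, with 5 lower and 2 higher in KO and a median log2 ratio of -0.62. Markers of skeletal muscle were measured for 8 of 11 genes, of which 7 were lower (median -0.56), with *Mylpf*, *Myod1* and *Pax7* not well above background on either array. Cornified skin markers were measured for 4 of 5 genes, all higher in KO (median 1.17), and *Flg* was well above background in KO only. Cartilage markers were measured for 7 of 8 genes, 6 of them higher (median 0.36), with *Matn1* not measured. Odontoblast markers were measured for 4 of 4 genes (median 0.42), with *Dmp1* at 0.93 and *Phex* at 0.79 but *Dspp* at -0.01 and *Nes* at 0.06, and the macrophage markers *Cd68* and *Csf1r* read 0.50 and 0.33, with *Ptprc* measured in KO only. Epithelial markers had ratios above 0 for 7 of 10 genes (median 0.20), with *Krt18* at 0.92 and *Krt19* at 0.87 past 2 scanner errors, and mesenchymal markers for 7 of 9 (median 0.19) with 0 past. Dental epithelium markers were above 0 for 4 of 5 genes (median 0.13, *Lgr5* at 1.84) and bone markers for 6 of 7 (median 0.11, *Spp1* at 0.82 and *Ibsp* at 0.55). Endothelial markers were above 0 for 4 of 5 genes (median 0.09), with *Pecam1* at 0.62 and *Tek* at 0.64 past 2 scanner errors. The RNA of both samples thus came from a mixture of cells, and fewer cells of a type cannot be told apart from less RNA per cell.

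Of the 39 FGF genes, 24 were measured on both arrays, which is 61.5%, beside 64.9 percent of all genes. A further 2 were measured on 1 array only and 13 on neither. Among the 24, 13 were higher and 11 lower in KO (54.2% higher, beside 52.5 percent of all measured genes), and the median log2 ratio was 0.04 beside 0.01 for all genes. The ratios ran from -0.70 to 0.64, so 0 of 24 reached 2-fold, a size that 0.739 percent of measured genes reached upwards and 0.681 percent downwards. On the brightest probe of each gene, *Fgf7* alone among the members was at least 1.5-fold higher (3.2 percent of all genes). *Fgf21* alone was at least 1.5-fold lower (2.99 percent). Past 2 scanner errors were 6 members higher in KO, namely *Fgf7*, *Fgfr2*, *Fgfr4*, *Spry1*, *Spred1* and *Dusp6*, which is 25% of the measured members beside 5.55 percent of all genes. Lower by more than 2 scanner errors were *Fgf1* and *Fgf21*, 8.33% of the members beside 5.3 percent of all genes. These counts depended on the processing. With the 75th percentile taken over spots other than controls 4 members were higher by more than 2 scanner errors, and with quantile normalization 5. After normexp background correction 3 members (*Fgfr4*, *Spry1* and *Spred1*) were higher by more than 2 scanner errors, 0 were lower, and 0 reached 1.5-fold in either direction. That correction added an offset of 50 to the signals, which draws the ratios of dim probes towards 0. The scanner errors were not recomputed for it, so lower counts under this setting were partly built in. With each array shifted by its median instead of its 75th percentile, 6 members were higher and 0 lower by more than 2 scanner errors, beside 1136 and 519 of all genes, against 765 and 731 with the 75th percentile. The same shift put 604 of all genes at least 1.5-fold higher and 299 lower, against 441 and 412. By role, ratios were above 0 for 4 of 4 measured feedback inhibitors (3 past 2 scanner errors) and 4 of 5 receptors (2 past), and below 0 for 7 of 11 measured ligands (2 past) and 2 of 3 ETS factors (0 past), beside 47.5 percent of all measured genes below 0. Differences between the roles were not tested.

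**Figure D1:**
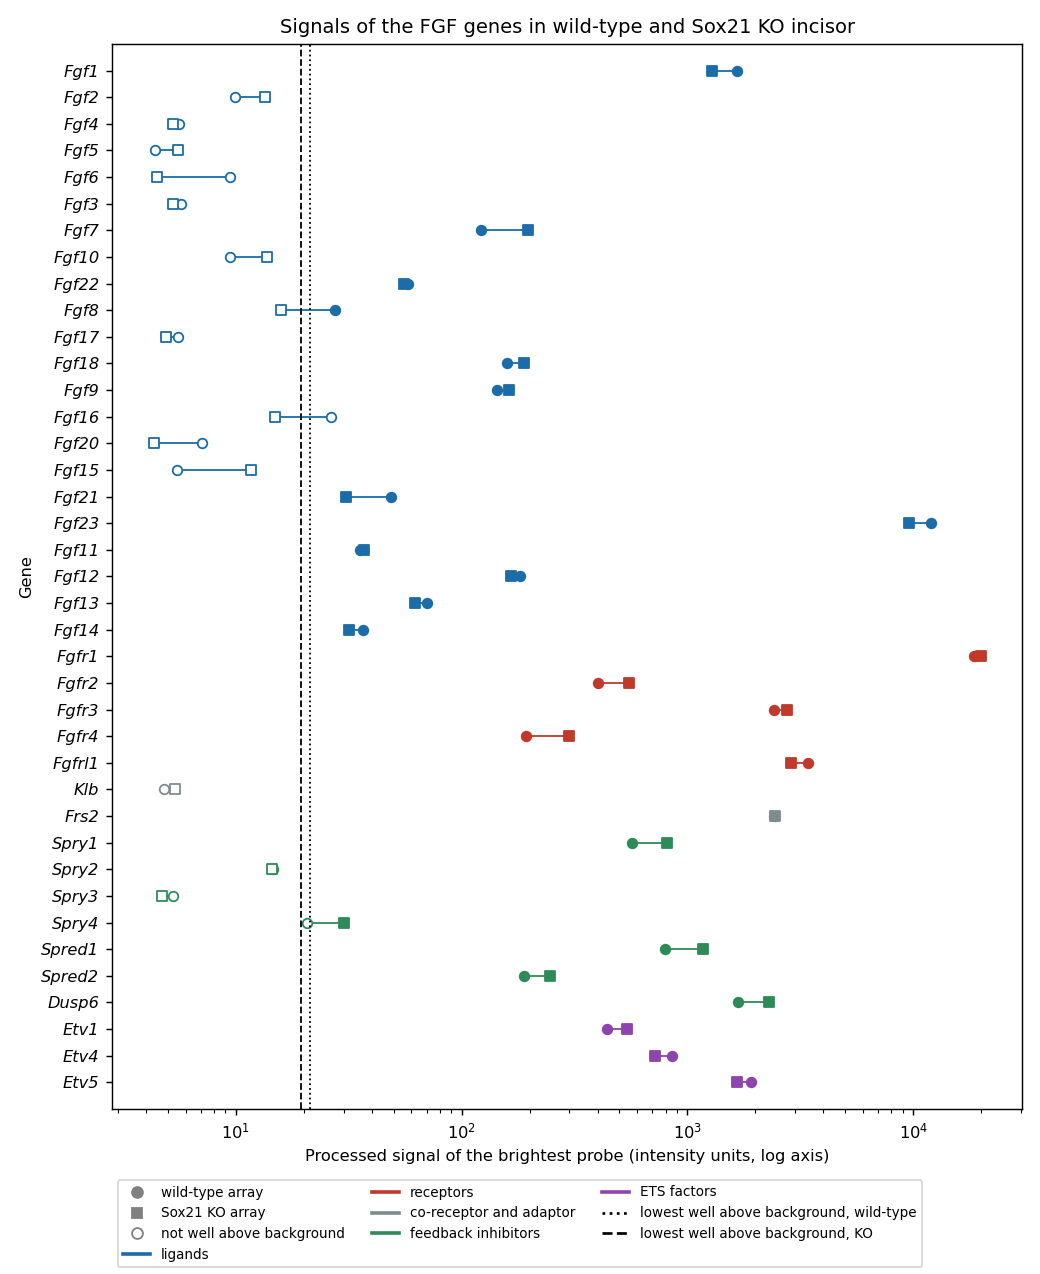
Processed signal (intensity units, log axis) of the brightest probe of each of the 39 FGF genes on the wild-type array (circles) and the *Sox21* KO array (squares), 1 array each, coloured by role; open symbols were not well above background, and the vertical lines mark the lowest signal that was, 21.3 in wild-type and 19.5 in KO. Of the 22 ligands, 11 have an open symbol on at least 1 array, while all 5 receptors and all 3 ETS factors lie far above them on both arrays.

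Of the 22 ligands, 11 were measured in both genotypes, and their median log2 ratio was -0.17. *Fgf7*, a mesenchymal growth factor for epithelial cells, read 122 in wild-type and 197 in KO, a log2 ratio of 0.64 ± 0.21. After normexp background correction, which adds an offset of 50, the ratio was 0.42, short of 2 scanner errors taken without that correction. As first given it was the highest ratio of the 24 measured members. *Fgf7* was the only ligand whose brightest probe was higher by more than 2 scanner errors. *Fgf21*, an endocrine ligand, read 48.6 in wild-type and 30.7 in KO, a ratio of -0.70 ± 0.32. It was the lowest ratio of the members, at signals not far above the detection level of either array. After normexp background correction the *Fgf21* ratio was -0.35, short of 1.5-fold and of 2 scanner errors. Under the median shift it was -0.63, also short of 2 scanner errors. *Fgf7* and *Fgf21* each rested on 1 probe with 1 spot.

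*Fgf1*, a ligand that binds all FGF receptors, read 1656 in wild-type and 1281 in KO on its brighter probe, a ratio of -0.41 ± 0.20. Its dimmer probe read 39.2 and 37.8, a ratio of -0.09 ± 0.32, which was within its scanner error. *Fgf9*, a ligand of the dental epithelium, read 143 in wild-type and 162 in KO, a ratio of 0.13 ± 0.21 that was smaller than the scanner error. *Fgf22*, an epithelial ligand of the Fgf7 subfamily, read 57.8 and 55.5, a ratio of -0.10 ± 0.28, again within the error.

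*Fgf18*, which acts in cartilage and bone growth, was measured by a pair of probes that overlap on chromosome 11, at 33017440-33017499 and 33017474-33017533 in mm9. The bases that both probes hold are shown because the probes read neighbouring, partly shared stretches of the transcript.
Fgf18 shared by both probes (26 bases): acgaggaaactgcgagaaaccaaagt
The brighter probe read 159 in wild-type and 189 in KO, a ratio of 0.21 ± 0.21, and the dimmer probe read 60.0 and 92.9, a ratio of 0.59 ± 0.25. Both ratios were above 0, the brighter probe's by less than its scanner error. The dimmer probe's ratio was past 2 scanner errors and past 1.5-fold.

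The intracellular FGF homologous factors, *Fgf11* to *Fgf14*, are not secreted and act on ion channels rather than on FGF receptors. All 4 were measured, with ratios of their brightest probes from -0.25 to 0.01 and none of these past 2 scanner errors. *Fgf12* had 10 spots of its brighter probe, which read from 162 to 206 in wild-type (median 177) and from 155 to 189 in KO (median 164). The spots of the 2 arrays overlapped, and the ratio was -0.17 with a standard deviation of 0.13 between spots. A dimmer *Fgf12* probe, whose ends lie 183340 bases apart in mm9, read 89.0 and 58.7, a ratio of -0.64 ± 0.24. That ratio was past 2 scanner errors and more than 1.5-fold lower. The probes of *Fgf12* differed by 0.48, the largest difference between measured probes of any member.

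*Fgf23*, the hormone from bone that lowers phosphate, read 11997 in wild-type and 9616 in KO on its brighter probe, a ratio of -0.36 ± 0.20. Its other probe, on the same chromosome 6 (127031289-127031348 in mm9, against 127030758-127030817 for the bright probe), read 4.81 and 4.47, which was not well above background in wild-type or in KO. The first 30 bases of both probes are shown because they differ in a repeat, given in capitals.
Fgf23 bright probe: cCACACACACACACACACACAtacatgtaa
Fgf23 dim probe: tttagtgaaagcctccgctagcaggttgac
The bright probe holds an unbroken CA run of 20 bases from its position 2 to 21, counted from the 5′ end, and the longest CA or GT run in any other member probe was 8 bases.

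Probes of other genes with such a run were therefore read on both arrays. A CA or AC run of at least 18 bases is held by 27 probes, the *Fgf23* probe included, and 27 of 27 were well above background on both arrays, beside 46.6% of all probes. All 27 were lower in KO, with log2 ratios from -0.76 to -0.35 and a median of -0.46. Only 1 of the 27 lay closer to 0 than the *Fgf23* probe. The 63 probes with a run of GT or TG, the same repeat on the opposite strand, were also well above background in 63 of 63 cases, and 62 of them were higher in KO (median 0.20). The *Fgf23* ratio therefore lay inside the range of unrelated probes that share its repeat, while the probe without the repeat gave no signal above background. Without the bright probe, a choice made after the data were seen, *Fgf23* joined the genes measured on neither array, 6 of 10 measured ligands were lower in KO, and the ligand median was -0.13 in place of -0.17.

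**Figure D2:**
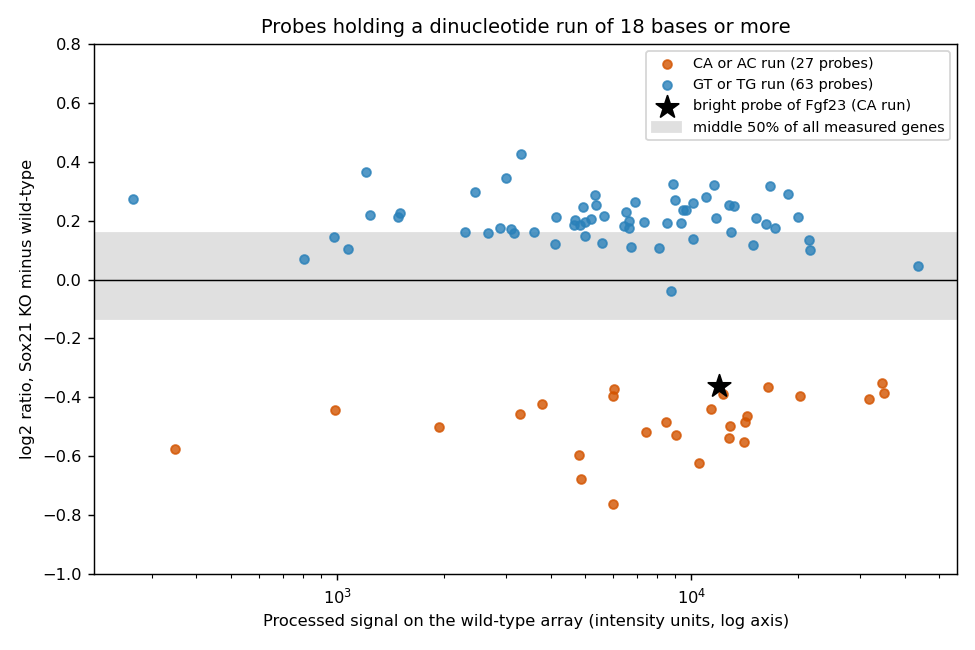
Log2 ratio, *Sox21* KO minus wild-type, against the processed signal on the wild-type array (intensity units, log axis) for every probe with a dinucleotide run of at least 18 bases, 1 point per probe; the star is the bright *Fgf23* probe and the grey band holds the middle 50% of all measured genes. The 27 probes with a CA or AC run all lie below 0, with the *Fgf23* probe at -0.36 among them, and 62 of 63 probes with a GT or TG run lie above 0.

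Several ligands with a known part in tooth development were below the range in which a ratio can be read. *Fgf3*, a ligand of the dental papilla, read 5.74 in wild-type and 5.25 in KO, and its probe spans 1860 bases of mm9. *Fgf10*, the mesenchymal ligand that maintains the incisor's progenitor niche, had 9 usable spots that read from 5.23 to 13.2 in wild-type (median 8.67) and from 9.45 to 18.6 in KO (median 12.9). Of these, 0 of 9 spots were well above background on either array, so the higher KO median of *Fgf10* has no readable fold. *Fgf8*, the early epithelial signal of the tooth, was measured in wild-type only, at 27.6 ± 5.47 against 15.9 ± 4.55 in KO (signal and its scanner error), and the bound, which takes no account of these errors, was at least 1.46-fold lower in KO. The other 8 unmeasured ligands were *Fgf2*, *Fgf4*, *Fgf5*, *Fgf6*, *Fgf15*, *Fgf16*, *Fgf17* and *Fgf20*, and *Klb*, the co-receptor for endocrine FGFs, was not measured either. The genes measured on neither array read from 4.41 to 26.3 in wild-type and from 4.33 to 14.9 in KO.

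All 5 receptor genes were measured in both genotypes. Their median log2 ratio was 0.15, or 0.29 for the kinase receptors *Fgfr1* to *Fgfr4* without *Fgfrl1*. The choice of probe moved the median of the 5 to 0.35 with the mean over probes and to 0.54 with the dimmest measured probe. The 8 probes of *Fgfr1* to *Fgfr4* that were measured in both genotypes all had ratios above 0, beside 52.5 percent of all measured genes. Probes of the same gene are not independent readings, and the *Fgfr2* pair overlaps. *Fgfr1*, the main receptor of mesenchyme, read 18582 in wild-type and 19956 in KO, a ratio of 0.06 ± 0.20, and its other probes gave 0.09 and 0.14. The 3 *Fgfr1* probes thus lay within 1 scanner error of no change.

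*Fgfr2*, whose epithelial form receives *Fgf7* and *Fgf10*, read 401 in wild-type and 553 in KO on its brighter probe, a ratio of 0.42 ± 0.20. This ratio fell short of 2 scanner errors with the 75th percentile over spots other than controls (0.41) and after normexp correction (0.36). A dimmer probe on 10 spots of each array read from 160 to 185 in wild-type (median 170) and from 261 to 290 in KO (median 268), and the spots of the 2 arrays did not overlap. Its ratio was 0.62 with a standard deviation of 0.08 between spots, past 1.5-fold. These spots are technical repeats of 1 sample each. The *Fgfr2* probes share 42 of 60 bases on chromosome 7 (137307473-137307532 and 137307455-137307514 in mm9), and the start of the shared stretch is shown because this is the receptor result with the most spots behind it.
Fgfr2 shared by both probes (first 30 bases): ctgcctcagtatccacacataaacggcagt
Whether these probes separate the epithelial from the mesenchymal splice form was not tested, since no annotation of the build was used here to place them in exons.

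*Fgfr3*, known for its part in cartilage growth, read 2421 in wild-type and 2767 in KO, a ratio of 0.15 ± 0.20, while a second probe that spans 235 bases of mm9 read 97.8 and 147, a ratio of 0.54 ± 0.22. *Fgfr4*, a receptor of differentiating muscle among other tissues, read 194 in wild-type and 298 in KO, a ratio of 0.58 ± 0.21 that falls just short of 1.5-fold. A second *Fgfr4* probe was well above background in KO only, at 23.2 in wild-type and 34.97 in KO. *Fgfr4* was higher by more than 2 scanner errors on the array where 7 of 8 measured muscle markers had ratios below 0 (5 past 2 scanner errors), and the part of cell composition in this was not tested. The brighter *Fgfr3* probe lay within 1 scanner error of no change.

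*Fgfrl1*, the receptor that binds FGFs but lacks the kinase domain, went the other way. It read 3407 in wild-type and 2875 in KO, a ratio of -0.29 ± 0.20. *Frs2*, the docking protein, read 2426 and 2439, a ratio of -0.03 ± 0.20.

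**Figure D3:**
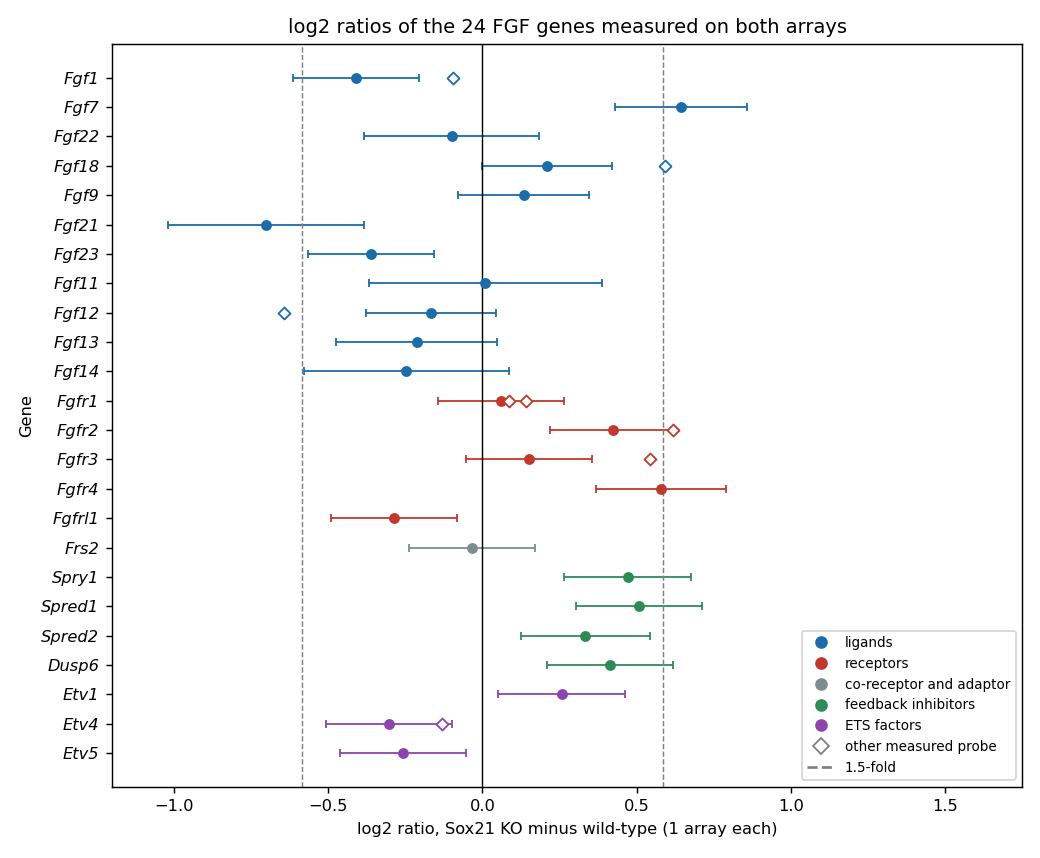
Log2 ratio, *Sox21* KO minus wild-type, of the 24 FGF genes measured on both arrays (circles, brightest probe), with bars of 1 scanner error to either side; open diamonds are other measured probes of the same gene, and the dashed lines mark 1.5-fold. The 4 feedback inhibitors lie between 0.33 and 0.51, and the probes of *Fgf1*, *Fgf12*, *Fgf18* and *Fgfr3* spread more than the others.

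The 4 measured feedback inhibitors were all higher in KO, by similar amounts. *Spry1*, a Sprouty protein that restrains receptor signalling upstream of MAPK, read 569 in wild-type and 812 in KO, a ratio of 0.47 ± 0.20. *Spred1*, a Sprouty-related inhibitor of Ras and Raf, read 797 and 1166, a ratio of 0.51 ± 0.20. *Dusp6*, the phosphatase that inactivates ERK and is widely used as a readout of FGF activity, read 1678 and 2299, a ratio of 0.41 ± 0.20. These 3 genes were past 2 scanner errors, but *Dusp6* fell short of them with the 75th percentile over spots other than controls (0.40), with quantile normalization (0.40) and after normexp correction (0.41).

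*Spred2*, the relative of *Spred1*, read 190 in wild-type and 246 in KO, a ratio of 0.33 ± 0.21. The 4 ratios spanned 0.33 to 0.51 with a median of 0.44, above the scanner error of each and below 1.5-fold in every case. *Spry4*, an inhibitor that limits FGF signalling in tooth epithelium and mesenchyme, was measured in KO only, at 30.02 ± 4.95 against 20.6 ± 4.82 in wild-type (signal and its scanner error). The bound was at least 1.37-fold higher in KO, which takes no account of these errors, and the ranges of 1 error overlapped. *Spry2*, known with *Spry4* for holding back FGF signalling in the tooth, read 14.7 and 14.5, and *Spry3* read 5.30 and 4.71, both below the range of measurement.

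The ETS factors, which MAPK signalling also induces, did not share a direction. *Etv1* read 439 in wild-type and 539 in KO, a ratio of 0.26 ± 0.20. *Etv4* read 857 and 715, a ratio of -0.30 ± 0.20 (-0.13 on its dimmer probe), and *Etv5* read 1920 and 1652, a ratio of -0.26 ± 0.20. None was past 2 scanner errors, and each ratio was smaller in size than those of *Spry1*, *Spred1* and *Dusp6*.

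Because the measured feedback inhibitors were all higher in KO, their promoters, and those of *Fgf7*, *Fgfr2*, *Fgfr4* and *Etv5*, were read from RefSeq (250 bases before to 50 after the gene start, GRCm38.p6). Searched on both strands were an ETS motif (CCGGAA, in 14.9 percent of 32851 promoters), a SOX motif (ACAAT, in 31 percent) and an AP-1 motif (TGANTCA, in 7.81 percent), all picked after the sequences had been read. The promoters of *Spry1*, *Spred1* and *Spred2* held 0 matches to any of the 3 motifs, and that of *Dusp6* held 1, to the SOX motif, at position -115 from the gene start. Of the other members read in the same way, *Fgf7* and *Etv5* held 0 matches, *Fgfr2* held 1 to the SOX motif, at position +16, and *Fgfr4* held 1 to the ETS motif, at position -178. The *Dusp6* promoter is printed with the match in capitals (chr10:99262981-99263280, plus strand).
Dusp6 promoter: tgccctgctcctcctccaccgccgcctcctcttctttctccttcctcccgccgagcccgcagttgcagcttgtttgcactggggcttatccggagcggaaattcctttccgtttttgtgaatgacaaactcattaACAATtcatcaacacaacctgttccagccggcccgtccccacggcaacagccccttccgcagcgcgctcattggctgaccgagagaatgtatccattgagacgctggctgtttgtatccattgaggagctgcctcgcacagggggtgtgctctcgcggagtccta
The *Spry1* promoter, of an inhibitor with a similar ratio, is printed for comparison (chr3:37639697-37639996, plus strand).
Spry1 promoter: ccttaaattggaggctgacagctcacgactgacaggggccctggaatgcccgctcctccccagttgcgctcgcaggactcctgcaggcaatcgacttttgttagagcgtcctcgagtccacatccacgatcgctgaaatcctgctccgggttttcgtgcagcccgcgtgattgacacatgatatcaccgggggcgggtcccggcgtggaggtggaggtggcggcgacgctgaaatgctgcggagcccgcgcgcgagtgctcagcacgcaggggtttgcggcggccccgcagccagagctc
The GC content was 57.3% for *Dusp6* and 64.3% for *Spry1*, against a median of 52.7% over all promoters. A letter match is a description and does not show that a factor binds there.

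Genes that act with the FGF genes were described from lists chosen by function. The MAPK cascade, from adaptors to ERK, was measured for 18 of 19 genes, with 9 higher and 9 lower, a median of -0.03 and a range from -0.27 to 0.24. None of these 18 genes reached 1.5-fold. Genes of heparan sulfate synthesis and its core proteins were measured for 21 of 23 genes, 14 with ratios above 0 (52.5 percent of all genes) and 7 below, with a median of 0.16. By more than 2 scanner errors 4 of the 21 were higher and 0 lower, beside 5.55 and 5.3 percent of all genes. Of these 4, *Hs6st1*, a heparan sulfate 6-O-sulfotransferase, had a ratio of 0.65, and *Sdc4*, a syndecan core protein, read 258 in wild-type and 409 in KO, a ratio of 0.62. The other 2 were the glypican *Gpc6*, with a ratio of 0.56, and the syndecan *Sdc1*, with 0.42. *Gpc6* fell short of 2 scanner errors after normexp correction (0.41).

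Other feedback and modulator genes were measured for 12 of 16 genes, with a median of 0.16. Ratios were above 0 for 10 of them (52.5 percent of all genes) and below 0 for 2. By more than 2 scanner errors 2 were higher and 1 lower (5.55 and 5.3 percent of all genes), and 9 lay within them. *Fgfbp1*, a carrier that frees FGFs from the matrix, read 30.2 in wild-type and 103 in KO, a ratio of 1.73 ± 0.35, or 0.75 after normexp background correction. *Flrt2*, a membrane protein of the FGF receptor-interacting FLRT family, read 279 and 607, a ratio of 1.08. *Il17rd*, also known as Sef, an inhibitor of FGF signalling, read 698 and 478, a ratio of -0.59. *Fgfbp1* and *Flrt2* thus had larger ratios than any of the 24 members, and *Il17rd* was lower where the measured Sprouty and Spred inhibitors were higher.

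Immediate early genes, which MAPK signalling and handling stress both induce, were measured for 10 of 13 genes, with a median of 0.35. Ratios were above 0 for 8 of them (52.5 percent of all genes) and below 0 for 2. *Atf3*, a stress-responsive factor, read 62.5 in wild-type and 142 in KO, a ratio of 1.15. *Egr1* read 1065 and 1743, a ratio of 0.67, and *Fos* read 342 and 523, a ratio of 0.57. *Fosl1* and *Junb* were well above background in KO only and *Egr3* on neither array. Of the 10, 5 were higher by more than 2 scanner errors (*Atf3*, *Egr1*, *Dusp1*, *Fos* and *Myc*), beside 5.55 percent of all genes, and 5 lay within them, with *Fosb*, *Ier2* and *Ier3* between 0.08 and 0.19 and *Egr2* and *Jun* at -0.02 and -0.06. Those 5 higher genes were higher on the same array as *Spry1*, *Spred1*, *Spred2* and *Dusp6*. So were the macrophage marker *Cd68* and markers of skin (4 of 4 measured above 0) and cartilage (6 of 7). The odontoblast markers *Dmp1* and *Phex* were also higher, but *Dspp* read -0.01 and *Nes* 0.06. *Csf1r*, at 0.33, lay within 2 scanner errors. The part of all these genes in that result was not tested.

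**Figure D4:**
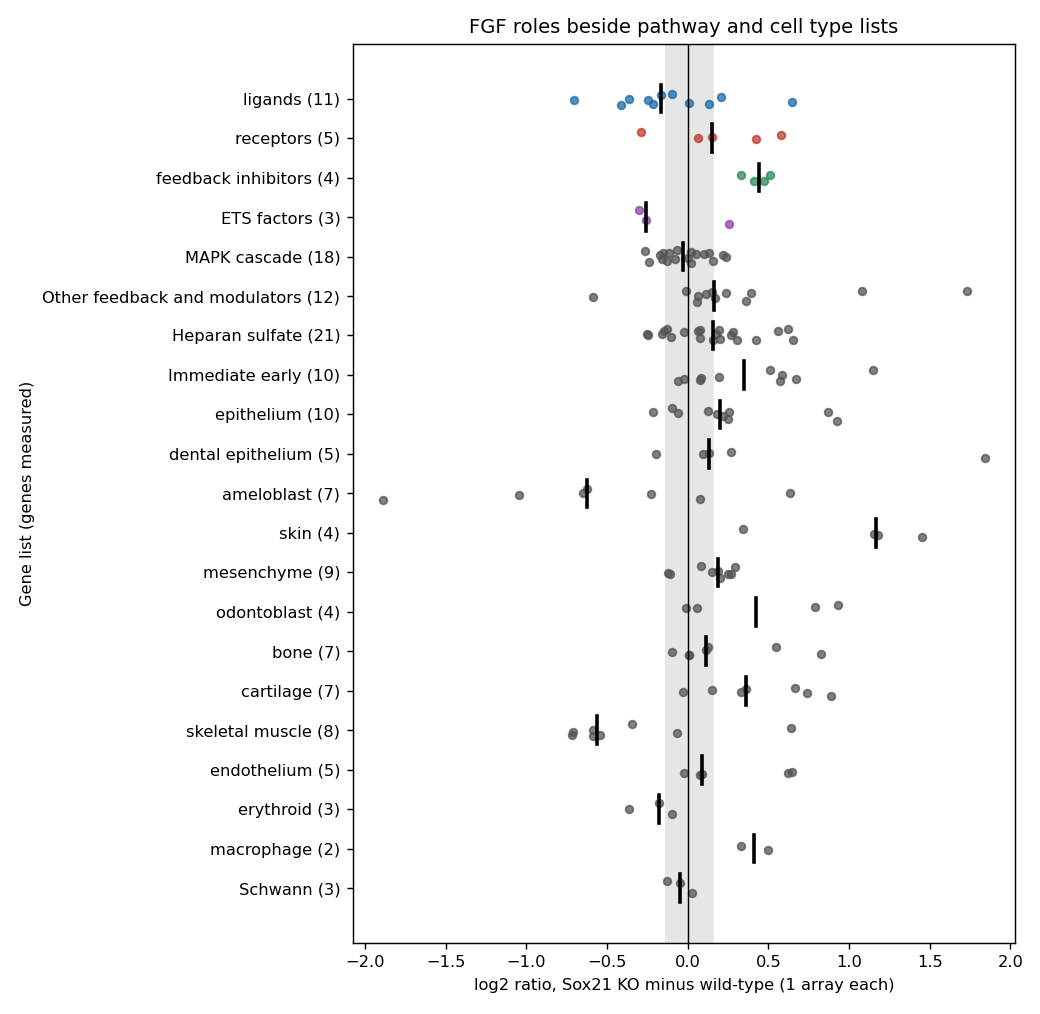
Log2 ratio, *Sox21* KO minus wild-type, of each measured gene (points, spread vertically for clarity) by FGF role, pathway list and cell type marker list, with the number of genes measured in brackets; black bars are list medians and the grey band holds the middle 50% of all measured genes. Medians lie above the band for the feedback inhibitors (0.44), the immediate early genes (0.35) and the markers of skin (1.17), odontoblasts (0.42), macrophages (0.41), cartilage (0.36), epithelium (0.20) and mesenchyme (0.19), and below it for the ligands (-0.17), the ETS factors (-0.26) and the markers of ameloblasts (-0.62), skeletal muscle (-0.56) and erythroid cells (-0.18); heparan sulfate and the other modulators (both 0.16) lie at its upper edge.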

How the data were processed

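The authors labelled RNA with Cy3 and deposited, for each spot, a background-subtracted processed signal intensity and its error from Agilent Feature Extraction 10.7.3.1. They also deposited a table of linear ratios, each signal divided by the array's 75th percentile. No differential values were used.

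The log2 of the processed signal was shifted by the 75th percentile over all spots of its array (267.7 in wild-type, 275.6 in KO). Spots marked as outliers (267) were left out and repeat spots averaged, leaving 55679 probes. A probe was measured where more than 50% of its spots were well above background, and a gene took its brightest probe. A gene measured on 1 array was given a bound from the lowest signal well above background. Spots well above background made up 49.7% and 50.4% of the arrays, and 0 were saturated. The median spot-to-spot standard deviation of the log2 ratio was 0.09 over 269 repeated probes. With 1 array per genotype no test was run. The number of arrays limits the precision.

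Of 57 member probes, 55 were named by accession and 2 by symbol from RefSeq (GRCm38.p6). Coordinates are those of the files (mm9). Named were members past 1.5-fold, the brightest of each role, members measured on 1 array and those known in tooth development. A difference above 0.5 between measured probes of a member was a further ground, which none met (largest 0.48). Other members were added after their values were seen. The members and lists were chosen with earlier results of these data known, and the threshold of 2 scanner errors was added after the data were seen. Python 3.11.15 (numpy 2.4.6, pandas 2.3.3) and limma 3.58.1 in R 4.3.3 were used, and the scripts were tested on simulated data. Alternatives covered scaling, normexp background correction with an offset of 50, filters, probe choice, outlier spots and the authors' table.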

Additional observations from a re-analysis of the deposited data

How the results depend on the processing

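The member ratios, the medians by role and pathway list, the counts and 6 pathway genes were recomputed under 10 other settings and, added after the data were seen, without the bright *Fgf23* probe. Signs of member ratios were kept throughout, except *Frs2* under the median shift and *Fgf11* with the 75th percentile over spots other than controls and under normexp correction. Across settings *Fgf7* ranged from 0.42 to 0.72, *Fgf21* from -0.72 to -0.35, *Fgfr2* from 0.36 to 0.62, *Fgfr3* from 0.14 to 0.54, *Fgfr4* from 0.44 to 0.65, *Spry1* from 0.46 to 0.54, *Spred1* from 0.46 to 0.58, *Spred2* from 0.22 to 0.41 and *Dusp6* from 0.40 to 0.49. *Fgfbp1* ranged from 0.75 to 1.80. The median shift moved the median of all genes to 0.09, and dropping the filter moved it to -0.06. The median of the members, 0.04 as reported, was 0.11 and -0.03 under these settings. Members at least 1.5-fold higher numbered 2 under the median shift, 0 under normexp correction, 2 with no filter on dim probes, 2 with the filter for positive and significant signal, and 3 with the dimmest measured probe. Members at least 1.5-fold lower numbered 0 under normexp correction, 5 with no filter, 3 with the positive and significant filter and 2 with the dimmest probe. Members 2-fold higher numbered 1 with no filter and 1 with the positive and significant filter, and 1 was 2-fold lower with no filter. Members higher by more than 2 scanner errors numbered 4 with the 75th percentile over spots other than controls, 5 with quantile normalization and 3 under normexp correction, and those lower numbered 0 under the median shift, 0 under normexp correction and 1 with the mean over probes. Over all genes, 2-fold rises and falls numbered 46 and 41 under normexp correction, 513 and 702 with no filter, and 294 and 326 with the positive and significant filter. At 1.5-fold they numbered 172 and 213, 1305 and 1463, and 914 and 896 in that order, and past 2 scanner errors 408 and 471 under normexp correction. The median of the 5 receptors, 0.15 as reported, was 0.35 with the mean over probes and 0.54 with the dimmest probe, the ETS median was -0.13 with the dimmest probe, and the immediate early median was 0.51 with no filter and 0.54 with the positive and significant filter. The causes were not tested. No paired analysis was possible because each genotype had 1 array, and for the same reason no replicate could be left out. Signal close to background limits the 15 members not measured on both arrays.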
